A study of Rattus norvegicus with 18 samples.

Results

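Cytosolic ribosomal protein genes encode the proteins of the ribosome outside mitochondria. They were taken as every gene whose probe sets carried exactly 1 symbol in the platform annotation, that symbol being Rpl or Rps with a digit, Rplp0, Rplp1, Rplp2 or Rpsa. Kinases named Rps6k and pseudogenes were left out, and each gene was represented by its brightest probe set (by mean log2 signal across the 6 samples). The rule found 59 genes with 100 probe sets, among 10969 genes with 1 symbol on the arrays. Of the 59, 20 belong to the small subunit (40S) and 39 to the large subunit (60S). Rplp2 was not among them. Another 52 probe sets carried several symbols, at least 1 of them a ribosomal protein, and are not named here.

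Total kidney RNA of Dahl salt-sensitive (S) rats was compared with that of a congenic strain. By its name the congenic strain is an S rat with a piece of chromosome 9 from a donor strain R, and the labels place a quantitative trait locus for blood pressure in it, so that both strains share the S background. Each strain had 3 RNA samples, numbered 1 to 3, and each sample was run on Affymetrix arrays of 3 types, here A, B and C. The labels used here give neither diet nor age, and no label says whether a sample was 1 animal or a pool. The p-values therefore reflect how these samples vary, and that variation may be technical.

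A ribosome is built from ribosomal RNA and about one protein of each kind, so that equal amounts of many different proteins are needed. In mammals the genes are scattered over the genome, are active in every cell and give some of the most abundant messenger RNAs. The messenger RNAs usually begin with an unbroken run of pyrimidines (C and T in the gene), the 5′ terminal oligopyrimidine motif, through which the mTOR kinase and the RNA-binding protein Larp1 control their translation.

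The gene starts show the feature that the members share in sequence, and the genes below are those whose signals are described afterwards. RefSeq promoters of the GRCr8 assembly were found for 51 of the 59 genes. Each line gives the 30 bases before the annotated start and the 20 bases from it, 5′ to 3′ on the gene's strand, and capitals mark the longest run of C and T that reaches within 10 bases of the start. The first 3 are chromosome 9 genes, the next 3 had higher signals in the samples numbered 1, the next 2 had lower signals there, and the last 2 had among the smallest p-values between the strains.
Rpl37a, chr9:81748061-81748110, plus strand: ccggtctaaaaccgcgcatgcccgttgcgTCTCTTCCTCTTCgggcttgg
Rpl31, chr9:49143081-49143130, plus strand: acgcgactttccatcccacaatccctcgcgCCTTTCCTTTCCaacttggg
Rpl36, chr9:1533750-1533799, plus strand: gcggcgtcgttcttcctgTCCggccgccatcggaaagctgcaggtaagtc
Rps27, chr2:177964587-177964636, minus strand: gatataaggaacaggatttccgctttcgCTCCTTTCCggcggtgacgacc
Rplp0, chr12:46718371-46718420, minus strand: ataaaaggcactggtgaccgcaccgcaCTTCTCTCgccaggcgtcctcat
Rps15, chr7:10068096-10068145, minus strand: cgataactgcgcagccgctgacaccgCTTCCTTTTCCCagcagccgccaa
Rps24, chr16:96487-96536, plus strand: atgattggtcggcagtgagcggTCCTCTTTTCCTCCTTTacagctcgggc
Rpl19, chr10:83519034-83519083, plus strand: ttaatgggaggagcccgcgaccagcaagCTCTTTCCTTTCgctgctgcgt
Rpl26, chr10:54109662-54109711, plus strand: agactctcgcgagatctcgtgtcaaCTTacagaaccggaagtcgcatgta
Rpl36a, chrX:102059419-102059468, plus strand: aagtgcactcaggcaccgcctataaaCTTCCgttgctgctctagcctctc

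Of the 51 starts, 36 (70.6%) had a run of at least 7 pyrimidines, against 19.1% of the 27457 RefSeq promoters. The median run was 10 bases in the members and 4 in all promoters, and the longest was the 24 bases of Rpl7a. Among the sequences above, Rps24 has a run of 17 and Rpl37a of 13, while Rpl36 and Rpl26 have 3. The letters CTTTC, searched on the gene's strand in the 40 bases around the start, were in 23 members (45.1%) and in 5.04% of all promoters. Over the whole 300 bases, CCGGAAGT on either strand was in 7 members (13.7%, all promoters 4.01%), AAGATGGC on either strand in 4 (7.84%, all 3.44%) and TATAAA on the gene's strand in 5 (9.8%, all 9.08%). These are matches of letters, and an annotated start need not be the start used in kidney.

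All 59 genes passed the filter on dim probe sets, which asked for a mean log2 signal above the 40th percentile of the array type, a signal of 21.2 on type A, 39.3 on type B and 37.7 on type C. Of their 100 probe sets 94 passed, and the 6 that did not belong to Rpl3l and Rps24 (2 each), Rpl30 and Rpl36a. The gene stood on type A for 38 members, on type B for 9 and on type C for 12. A probe set's signal depends on its probes as well as on its RNA, so no gene's signal is set against another's. The number of arrays limits the precision. The member probe sets held 4.10%, 4.26% and 4.10% of all signal on type A in Dahl S samples 1, 2 and 3, against 3.84%, 3.62% and 4.12% in congenic samples 1, 2 and 3. The means were 4.15% ± 0.0942 and 3.86% ± 0.254 (SD, n = 3), and the groups overlapped by congenic 3. On type B the means were 2.31% ± 0.294 and 2.25% ± 0.236, and on type C they were 1.90% ± 0.175 and 1.68% ± 0.107 (SD, n = 3 each).

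No ribosomal protein gene passed the threshold between the strains, and most differences were small. In limma's test with Benjamini-Hochberg adjustment over all probe sets, 0 of the 59 genes and 0 of all 15721 tested probe sets (0%) had an adjusted p under 0.05. At an unadjusted p under 0.05 there was 1 member, Rpl30, against 192 of 8168 tested genes (2.35%, with 1.36% lower in congenic as Rpl30 was). The congenic mean was within 0.25 log2 units of the Dahl S mean in 52 of the 59 members (65.6% of all tested genes). The median 95% confidence interval reached 0.41 log2 units to each side of a member's difference and 0.60 in all tested genes. In bulk RNA, fewer cells of a type and less RNA per cell cannot be told apart.

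**Figure D1:**
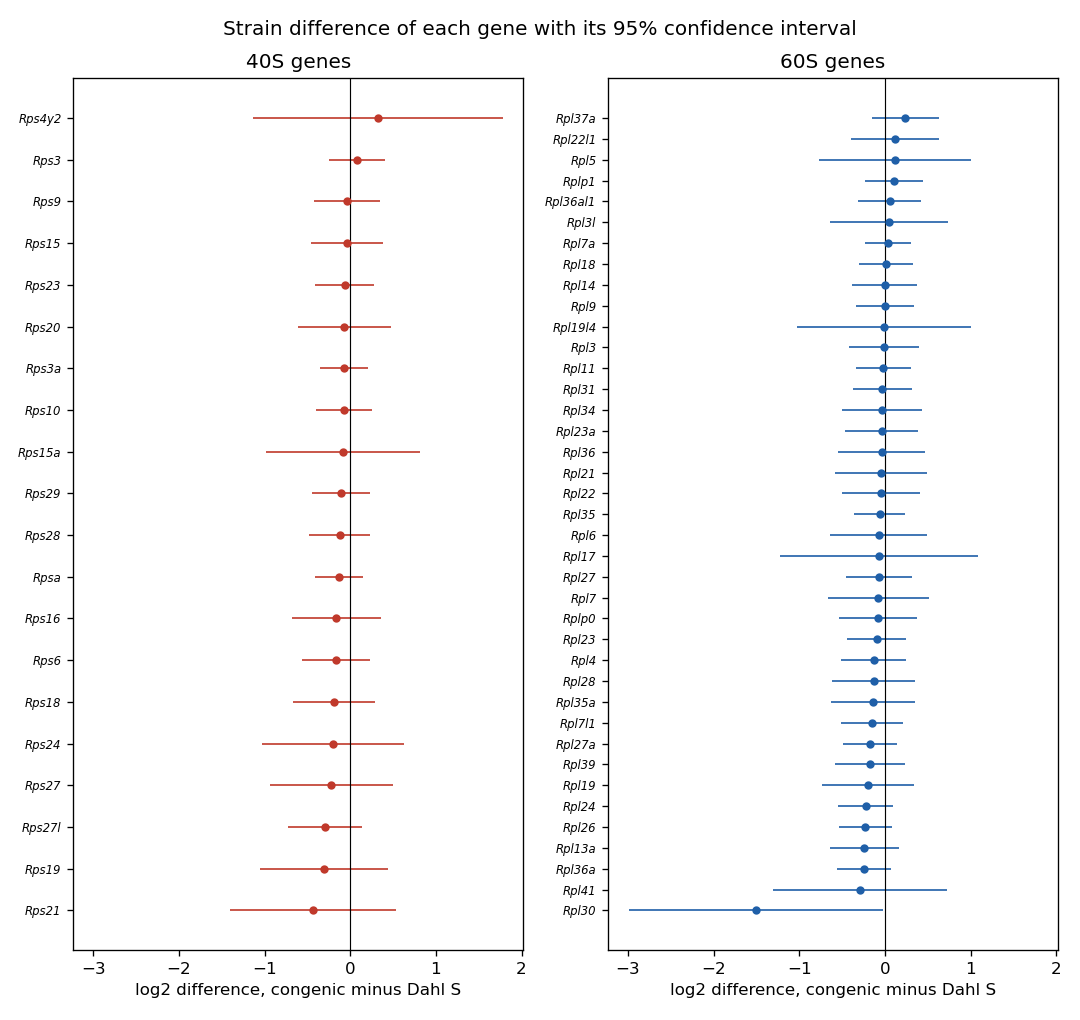
Log2 difference between the strains (congenic minus Dahl S, horizontal axis) for the 20 genes of the 40S subunit and the 39 of the 60S subunit, each point with its 95% confidence interval from limma (3 samples per strain). All intervals but that of Rpl30 include 0, and 49 of the 59 points lie below 0.

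The direction was uneven although the sizes were small. Of the 59 members 49 had a lower mean in the congenic strain and 10 a higher one, where 51.1% of all tested genes were lower. The split was 48 to 11 after quantile normalization and 41 to 18 after scaling every array to the same median. The median difference was -0.07 log2 units, against -0.01 over all tested genes, and it was -0.10 and -0.05 under the other scalings. This median moved with single samples. It was -0.15 when Dahl S sample 1 was left out, -0.17 when congenic 3 was and -0.02 when congenic 1 was. The number of members with a higher congenic mean was then 14, 12 and 26. Leaving out Dahl S 2 gave 20, Dahl S 3 gave 16 and congenic 2 gave 20. Without congenic sample 3, 4 of the 59 members had an unadjusted p under 0.05 in limma, where 2.35% of all tested genes did. None passed the adjusted threshold. The only member whose strains did not overlap was Rpl36a, where 7.62% of all tested genes did not overlap and 3.8% did so with congenic lower.

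Sample by sample, the members' median deviation from their own 6-sample mean was -0.05, 0.12 and 0.07 log2 units in Dahl S and -0.15, -0.11 and 0.15 in congenic. At the deposited scaling congenic 3 was the highest of the 6 samples, while congenic 1 and 2 were the lowest. After median scaling Dahl S 1 was below congenic 2, in the 40S genes (-0.21 against 0.01) and the 60S genes (-0.24 against -0.05). After quantile normalization congenic 3 (0.05) was below Dahl S 2 (0.10) and Dahl S 1 (0.06) in the 40S genes. The mean of these medians was 0.05 ± 0.09 for Dahl S and -0.04 ± 0.16 for congenic (SD, n = 3), a gap smaller than either SD. Congenic 3 held the highest signal of the 6 in 22 members, congenic 1 the lowest in 23 and congenic 2 the lowest in 16. Over all 8168 tested genes these counts were 1460, 1622 and 1340. Between samples of the same number, 40 members were lower in the congenic sample at number 1, 48 at number 2 and 22 at number 3, where all tested genes had 50.5%, 49.5% and 51.6% lower.

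**Figure D2:**
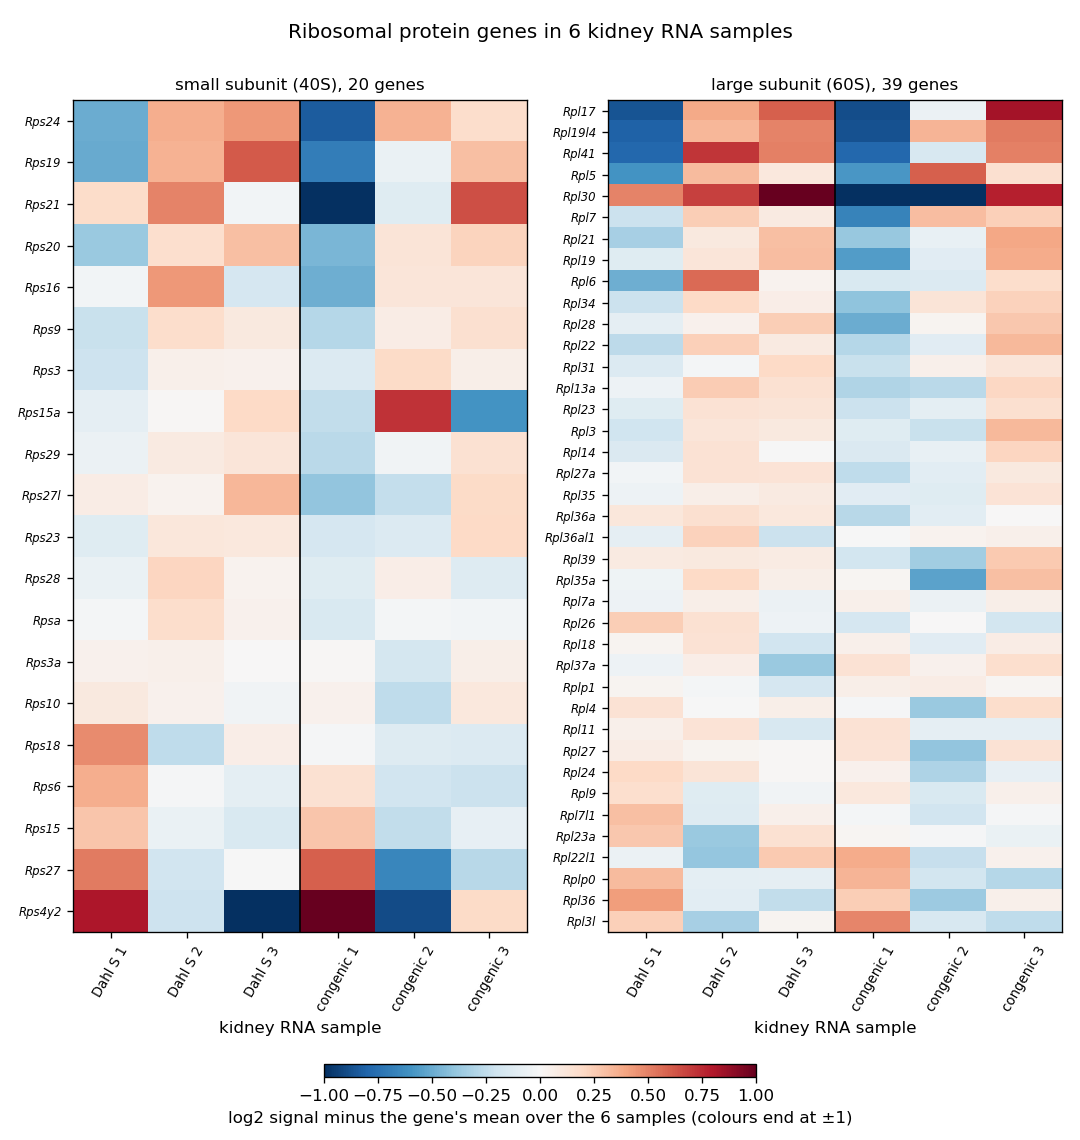
Log2 signal minus the gene's mean over the 6 samples (colour, ending at 1 log2 unit to each side) for each gene (rows) and kidney RNA sample (columns), ordered by the difference of the samples numbered 1 from the rest. Among the upper genes Rps24 and Rpl17 are low in both samples numbered 1, while Rps21 is low in congenic 1 but not in Dahl S 1. Among the lowest genes Rps27 and Rplp0 are high in both samples numbered 1.

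Both subunits followed the samples in the same way. The median deviation of the 40S genes was -0.02, 0.07 and 0.04 in Dahl S and -0.16, -0.10 and 0.11 in congenic, and that of the 60S genes was -0.05, 0.13 and 0.08 in Dahl S and -0.14, -0.11 and 0.16 in congenic. The 6 samples stood in the same order in both subunits at the deposited scaling, and not after quantile normalization. The 60S minus 40S difference was -0.03, 0.05 and 0.04 log2 units in Dahl S and 0.01, -0.01 and 0.05 in congenic, with overlap between the strains. Between the strains 18 of the 20 genes of the 40S subunit and 31 of the 39 of the 60S subunit were lower in congenic, with medians of -0.11 and -0.06. The 60S median minus the 40S median was 0.05. Leaving out Dahl S 1 made it 0.002, Dahl S 2 made it 0.02, congenic 2 made it 0.11 and congenic 3 made it -0.04. With the mean of each gene's probe sets it was -0.0002, so its size and sign depended on the samples and probe sets used.

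**Figure D3:**
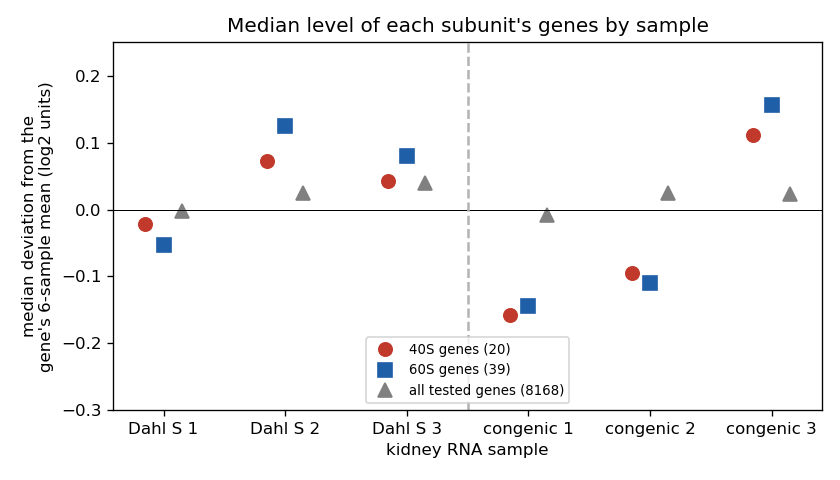
Median deviation of the 40S genes, the 60S genes and all 8168 tested genes from each gene's mean over the 6 samples (vertical axis, log2 units) in each kidney RNA sample (horizontal axis). The subunit medians lie close to each other in each sample, furthest apart in Dahl S 2 (0.07 and 0.13), and run from -0.16 in congenic 1 to 0.16 in congenic 3, while those of all tested genes stay near 0.

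Among the 60S genes Rpl30, whose protein also takes part in decoding selenocysteine, had the smallest unadjusted p. Rpl30 had signals of 52.7, 60.2 and 79.6 in Dahl S and 13.2, 12.9 and 64.0 in congenic. Congenic 1 and 2 were below the filter's signal on type A, whereas congenic 3 lay within the Dahl S samples. The log2 difference was -1.51 (SE 0.65), with an unadjusted p of 0.0467 and an adjusted p of 0.9997 in limma. Leaving out congenic 3 made it -2.28, and leaving out congenic 1 or 2 made it -1.14 or -1.12. Its other probe set was too dim to be tested, with signals of 2.8 to 46.6.

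Rpl36a encodes a 60S protein from the X chromosome. The signals were 3029.1, 3125.6 and 3003.2 in Dahl S and 2312.0, 2602.9 and 2807.4 in congenic. All congenic samples were below all Dahl S samples, by 0.25 log2 units on average (SE 0.14, unadjusted p 0.106, adjusted p 0.9997 in limma). A second probe set of Rpl36a gave -0.20 with overlapping strains.

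Rpl26, which lies close to the exit of the peptide tunnel, had signals of 1708.4, 1598.8 and 1393.3 in Dahl S and 1281.3, 1447.8 and 1267.6 in congenic. Only Dahl S 3 fell within the congenic range, and the difference was -0.23 (SE 0.14). Rpl24, a protein at the face that joins the small subunit, gave 1678.3, 1593.7 and 1474.6 in Dahl S and 1508.6, 1182.4 and 1382.3 in congenic. Here congenic 1 overlapped the Dahl S samples, and the difference was again -0.23 (SE 0.14). Rpl13a, known for a second role in silencing interferon-induced messages, gave 1161.4, 1437.1 and 1340.1 in Dahl S and 974.3, 999.5 and 1389.2 in congenic. Congenic 3 alone lay inside the Dahl S range (difference -0.24, SE 0.17). Rpl27a differed by -0.17 (SE 0.14).

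The exit of the tunnel, where a new peptide leaves the 60S subunit, was represented by 8 proteins (Rpl4, Rpl17, Rpl19, Rpl23a, Rpl26, Rpl31, Rpl35 and Rpl39). None passed the threshold in limma or had an unadjusted p under 0.05. The congenic mean was lower in all 8, as it was in 49 of all 59 members. The median of the 8 was 0.10 log2 units lower. Of the 3 that were refitted with each sample left out (Rpl19, Rpl26 and Rpl31), Rpl19 and Rpl31 turned. The 5S RNA particle joins Rpl5 and Rpl11 with 5S RNA, and when ribosome assembly fails these proteins bind Mdm2 and stabilise p53. Rpl5 had 50.9, 95.8 and 82.7 in Dahl S and 51.3, 116.3 and 85.7 in congenic, so that sample 1 was the lowest in both strains. Rpl11 had 2133.8, 2262.0 and 1841.0 in Dahl S and 2272.1, 1934.6 and 1936.0 in congenic, with full overlap. The differences were 0.11 (SE 0.39) for Rpl5 and -0.02 (SE 0.14) for Rpl11. Rpl23, which binds Mdm2 as well, differed by -0.10 (SE 0.15).

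The stalk of the 60S subunit recruits elongation factors and is built on Rplp0, which carries pairs of the acidic proteins Rplp1 and Rplp2. Rplp0 had signals of 4194.8, 3157.9 and 3173.9 in Dahl S and 4261.2, 2969.6 and 2775.2 in congenic. Both samples numbered 1 were higher than the other 4, and the strain difference was -0.09 (SE 0.20). Rplp1 had 5467.1, 5291.3 and 4762.0 in Dahl S and 5588.7, 5653.2 and 5430.5 in congenic. Only Dahl S 1 overlapped the congenic samples, and the difference was 0.11 (SE 0.15).

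Among the 40S genes, Rps6 encodes the classic substrate of the S6 kinases downstream of mTOR. The signals of Rps6 were 2050.6, 1581.5 and 1489.2 in Dahl S and 1777.0, 1399.5 and 1371.3 in congenic, with sample 1 highest in each strain and a strain difference of -0.17 (SE 0.18). Rpsa, which also serves as a cell-surface laminin receptor, had 2520.3, 2881.8 and 2635.8 in Dahl S and 2302.8, 2525.2 and 2513.0 in congenic. Dahl S 1 overlapped the congenic samples by a few signal units, and the difference was -0.13 (SE 0.12). Rps3, a protein at the entry of the message channel with a role in DNA repair, was on the higher side with 0.08 (SE 0.14).

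Of the other 40S genes Rps21, a small protein on the outer face of the subunit, had 170.6, 211.6 and 147.7 in Dahl S and 67.1, 138.0 and 234.7 in congenic. Congenic 1 was the lowest and congenic 3 the highest of all 6 samples, and the difference of -0.43 (SE 0.43) was the largest in size among the 40S genes. Rps15a, had 60.5, 64.9 and 74.2 in Dahl S and 54.4, 106.6 and 42.6 in congenic, which lay on both sides of Dahl S (difference -0.08, SE 0.40). Rps20, a protein of the 40S head, had 3891.0, 5659.5 and 6192.4 in Dahl S and 3658.5, 5512.5 and 5882.0 in congenic, with sample 1 the lowest in each strain and a strain difference of -0.07 (SE 0.24). Rps3a, Rps10, Rps23, Rps28 and Rps29 had differences from -0.12 (Rps28) to -0.06 (Rps23), with SEs of 0.12 to 0.16.

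Of the other 60S genes, Rpl4, Rpl6, Rpl7, Rpl14, Rpl18, Rpl21, Rpl23a, Rpl28, Rpl34, Rpl35, Rpl35a and Rpl39 differed by -0.18 (Rpl39) to 0.01 (Rpl18). Rpl39, which lines the exit tunnel, had 688.4, 690.8 and 682.4 in Dahl S and 568.3, 505.9 and 775.3 in congenic. The Dahl S samples were nearly equal, with congenic 1 and 2 below and congenic 3 above them. Rpl7a had the smallest residual SD of the 59 genes (0.0672 log2 units), with signals of 2274.1, 2458.0 and 2268.4 in Dahl S and 2450.2, 2264.1 and 2465.3 in congenic. The strains overlapped fully and the difference was 0.04 (SE 0.12). The median residual SD of the members was 0.240, where that of all tested genes was 0.310.

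Inherited loss of 1 copy of several ribosomal protein genes causes Diamond-Blackfan anaemia in humans. Of 18 such genes 14 were members here, of which 12 had a lower and 2 a higher congenic mean, where 49 of all 59 members were lower. The median of the 14 was -0.09, with no call in limma (0 with an unadjusted p under 0.05). Rps19, the gene most often affected in that disease, had 2306.0, 4154.8 and 4995.6 in Dahl S and 2022.1, 3118.1 and 4022.9 in congenic. The strains overlapped broadly and sample 1 was the lowest in each. The strain difference was -0.31 (SE 0.33).

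Several ribosomal protein genes serve as loading references in expression studies. Rplp0, Rpl13a, Rpl19, Rpl27, Rps9 and Rps18 were members. All 6 had a lower congenic mean, as did 49 of all 59 members. The median of the 6 was 0.14 log2 units lower, with none past the threshold or at an unadjusted p under 0.05 in limma. Rps18 had 14928.7, 9044.7 and 11312.9 in Dahl S and 10675.2, 9849.2 and 9780.5 in congenic. The Dahl S samples spanned the congenic ones on both sides (difference -0.19, SE 0.21). Rplp0, Rpl19, Rpl27 and Rps9 turned to a higher congenic mean when 1 sample was left out.

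Of the 4 members on chromosome 9, the chromosome of the donor segment, Rpl37a was on the higher side. Rpl37a, a 60S protein with a zinc-binding fold, had signals of 7011.4, 7637.1 and 5613.9 in Dahl S and 8023.4, 7504.5 and 8183.9 in congenic. Congenic 2 lay just under Dahl S 2 and the other congenic samples above all of Dahl S. The difference was 0.24 log2 units (SE 0.18, unadjusted p 0.206, adjusted p 0.9997 in limma), the largest on the higher side in a gene whose samples all passed the filter's signal. Without Dahl S 3, the lowest sample, it was 0.11. Rpl31 differed by -0.03 (SE 0.15), Rpl36 by -0.04 (SE 0.22) and Rpl7l1 by -0.15 (SE 0.16). The labels used here do not give the ends of the segment, so which of the 4 lie inside it is not stated.

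The rule also takes in 7 genes named as close relatives of a ribosomal protein gene, namely Rpl3l, Rpl7l1, Rpl19l4, Rpl22l1, Rpl36al1, Rps4y2 and Rps27l. Such relatives can share probes with the parent gene and with processed copies, so their signals are uncertain. Probe sets of the other members may also share probes with near-identical copies. Rps27l, a p53-induced relative of Rps27, had 544.3, 529.7 and 649.5 in Dahl S and 394.1, 439.2 and 588.9 in congenic. Only congenic 3 reached the Dahl S range, and the difference was -0.29 (SE 0.19). Its parent Rps27 differed by -0.22 (SE 0.31). Rpl22l1, the relative that can take the place of Rpl22, differed by 0.12 (SE 0.23) and Rpl22 by -0.05 (SE 0.20). Rpl3l, the form of striated muscle, had signals of 68.2 to 120.4 and differed by 0.05 (SE 0.30), where Rpl3 differed by -0.02 (SE 0.18). Rpl36al1 differed by 0.05 (SE 0.16), and Rps4y2, with signals of 25.3 to 122.5, by 0.32 (SE 0.64). Without the 7 relatives, 46 of 52 genes were lower in congenic, with a median of -0.08.

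Where a gene had several tested probe sets, as 23 members did, they did not always give the same direction. The widest range was that of Rpsa, with -0.13 and -0.08 from probe sets of type A and 0.55 from one of type B, whose signals were 26.4 to 78.8. Rpl7l1 ranged from -0.15 to 0.26, Rps16 from -0.18 to 0.17 and Rps6 from -0.21 to 0.10. Rpl11 and Rpl9 stayed on the lower side, from -0.35 to -0.02 and from -0.31 to -0.001. With the mean of each gene's probe sets in place of the brightest, Rpsa stood at 0.11, Rpl7l1 at 0.08 and Rpl7a at -0.03.

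**Figure D4:**
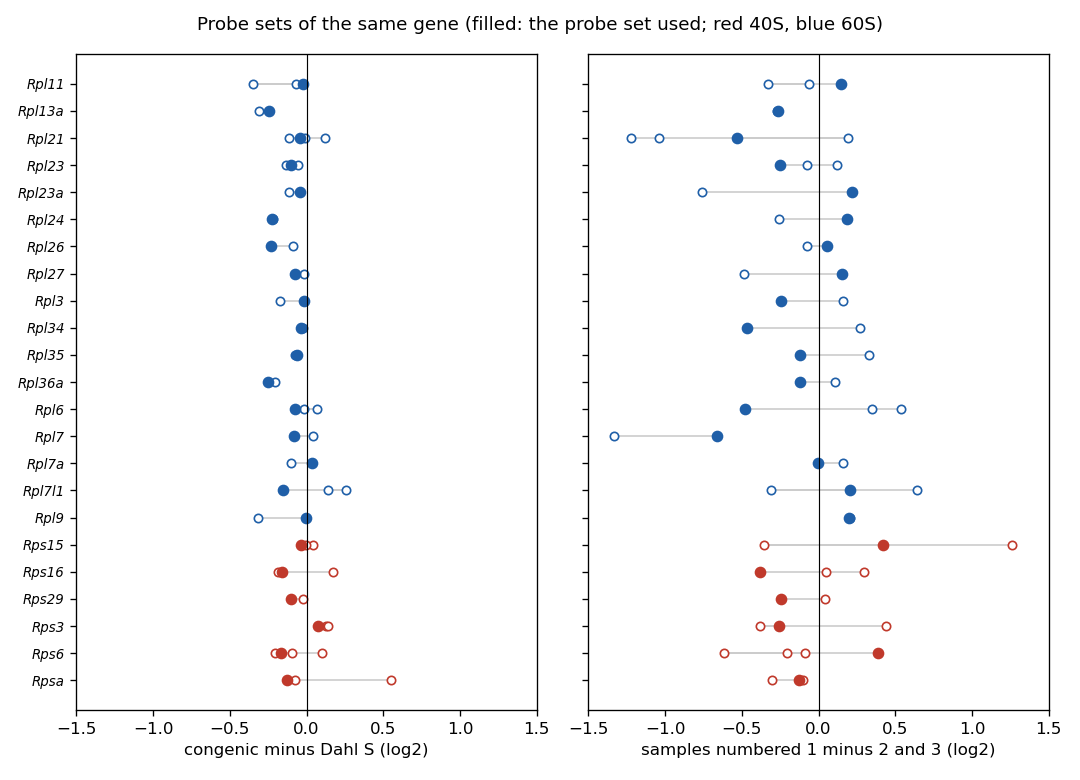
Every tested probe set of the 23 genes with more than 1 (filled circles, the probe set that stood for the gene; open circles, the others; red 40S, blue 60S), by strain difference in log2 units (left) and by the difference of the samples numbered 1 from the rest (right). Those of Rps15 run from -0.36 to 1.26 on the right, and those of Rpsa from -0.13 to 0.55 on the left.

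The samples numbered 1 stood apart from the others in many members, in both strains. Both were outside the range of the other 4 samples in 28 of the 59 genes, below it in 20 and above it in 8, against 28.3% of all tested genes (15.8% below, 12.5% above). The split was 17 below and 12 above after quantile normalization, where 29% of all tested genes stood apart. After scaling to the same median it was 31 and 4, where 41.3% of all tested genes stood apart. It was 16 and 7 with the mean of each gene's probe sets, where 28.5% of all tested genes stood apart. The median difference of the samples numbered 1 from the rest was -0.14 log2 units in the members and -0.03 in all tested genes. Its direction differed between the array types and the probe sets taken. On type A 14 of 38 members were below and 4 above, on type B 4 and 0 of 9, and on type C 2 and 4 of 12 (median 0.21). The shares over all genes of each type were not computed, so a shift of a whole array type cannot be told apart from one of the members. Of 49 tested probe sets with several symbols, at least 1 of them a ribosomal protein, 2 were below and 16 above (median 0.08). Of all 15721 tested probe sets 2228 were below and 2387 above (median 0.009).

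Rps27, a zinc-finger protein of the 40S subunit, was on the high side. The signals of Rps27 were 2697.1, 1654.5 and 1883.5 in Dahl S and 2854.5, 1199.7 and 1556.2 in congenic. Both samples numbered 1 were above all others, by 0.84 log2 units on average. Rplp0 stood 0.49 higher there, Rps15, which lies near the decoding centre, 0.42 and Rps6 0.39. Rpl36 was 0.50 higher, with 1230.4, 856.3 and 777.1 in Dahl S and 1095.9, 718.0 and 955.3 in congenic.

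On the low side Rpl17, a protein around the tunnel exit, had 75.7, 179.1 and 209.4 in Dahl S and 74.8, 132.5 and 245.8 in congenic. Both samples numbered 1 were the lowest of their strain, by 1.31 log2 units on average, and the strain difference was -0.07 (SE 0.50). Rpl41, the smallest protein of the ribosome, had 181.1, 513.0 and 443.4 in Dahl S and 181.2, 279.6 and 442.7 in congenic. Again both samples numbered 1 were below the other 4, by 1.18 on average. Its strain difference was -0.29 (SE 0.44), second in size to Rpl30 among the 60S genes. Rps24, a 40S protein needed for processing of the small-subunit RNA, had 215.5, 389.5 and 410.1 in Dahl S and 170.2, 386.6 and 343.2 in congenic, which is 0.99 lower in the samples numbered 1. Rpl19l4 was 1.26 lower, Rps19 0.90 lower and Rpl19 0.51 lower there.

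The split had the same sign in both strains for 55 of the 59 members (93.2%) and for 66.0% of all tested genes. Across the 59 genes the split in Dahl S and that in congenic had a Pearson's r of 0.84 and a Spearman's rho of 0.86, where all tested genes had an r of 0.41. By array type r was 0.91 on type A, 0.89 on type C and only 0.12 in the 9 members on type B. Over all 94 tested probe sets of the members, 84.0% had the same sign in both strains. In the 49 probe sets with several symbols, at least 1 of them a ribosomal protein, the share was 73.5%. In all 15721 tested probe sets it was 66.5%. The points of a strain share arrays, the genes are not independent replicates, and different probe sets of 1 gene did not always go the same way. Probe sets of Rps15 ran from -0.36 to 1.26, of Rpl21 from -1.22 to 0.20 and of Rps6 from -0.62 to 0.39.

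Control ratios moved with the same split. The log2 ratio of the signals at the 3′ and the 5′ end of GAPDH, averaged over the array types, was 0.31, 0.65 and 0.68 in Dahl S and 0.11, 0.54 and 0.63 in congenic. That of beta-actin was 0.49, 1.07 and 1.10 in Dahl S and 0.50, 1.07 and 1.35 in congenic. The samples numbered 1 had the lowest ratios in each strain and the highest median signals on every array type, 45.5 and 45.9 against 34.8 to 39.4 on type A. Their part in the members' split was not tested. Between the strains the ratios differed by -0.12 for GAPDH (two-sided exact permutation test, p = 0.5). For beta-actin the difference was 0.09 (p = 0.7 in the same exact test). The smallest p that this test allows at this size is 0.1.

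**Figure D5:**
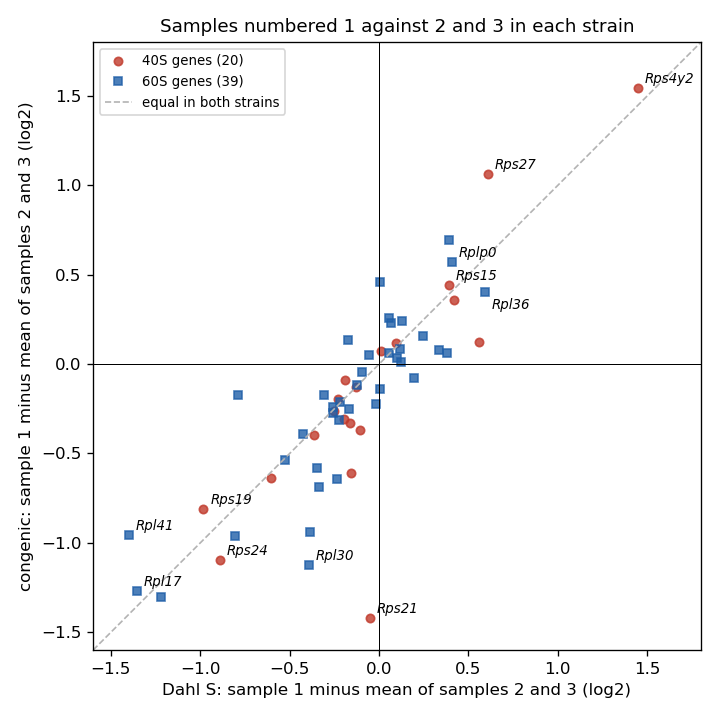
Log2 signal of sample 1 minus the mean of samples 2 and 3, in Dahl S (horizontal axis) and in congenic (vertical axis), for the 20 genes of the 40S subunit and the 39 of the 60S subunit. The points follow the line of equal values, with Rpl17, Rpl41 and Rps24 low and Rps27, Rplp0 and Rps15 high in both strains, and 55 of the 59 have the same sign on both axes.

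The starts shown above were set beside these values. The 36 genes with a run of at least 7 pyrimidines had a median strain difference of -0.07 (28 lower in congenic) and stood a median of -0.13 in the samples numbered 1. The 15 with shorter runs had medians of -0.16 (13 lower) and 0.06. Genes with long runs were on both sides of the split, Rps24 with 17 bases on the low side and Rps15 with 12 on the high side.

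In other genes of translation none passed the threshold in limma. Fau, whose product carries a 40S protein, and Rack1, the scaffold on the 40S head, differed by -0.09 and -0.14, both lower in congenic. Of 13 elongation and other factors whose messages also begin with pyrimidines, 6 were higher and 7 lower in congenic, with a median of -0.003. The smallest p there was that of Btf3, a chaperone subunit for new peptides, with 1354.6, 1355.2 and 1351.8 in Dahl S and 1800.1, 1634.7 and 1773.7 in congenic. All congenic samples were above all Dahl S samples, by 0.36 log2 units (SE 0.15, unadjusted p 0.0358, adjusted p 0.9997 in limma). Eif3h, a subunit of the scaffold factor eIF3, and Eif4b, a cofactor of the helicase eIF4A, also differed by 0.36 each with all congenic samples above all Dahl S samples. These 3 of the 13 genes stood apart in that direction, where 3.82% of all tested genes did.

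Of 29 initiation factors 14 were higher and 15 lower (median -0.0004), Eif3l by 0.50 and Eif4ebp1, the mTOR-controlled repressor of cap binding, by 0.62. Of 71 mitochondrial ribosomal proteins 34 were higher and 37 lower (median -0.01), with Mrps26 at -0.49 and Mrps18a at -0.36. Of 28 ribosome synthesis genes 17 were higher and 11 lower (median 0.02), with Rrp15 at 1.60 and Rrp9 at -0.43. Of 12 genes of mTOR, S6 kinases and Myc partners 6 were higher and 6 lower (median -0.03), with Mtor at 0.50 and Mxd4 at 0.48. Of all these, only Btf3, Eif3l, Mrps26, Rrp15 and Rrp9 had an unadjusted p under 0.05 in limma, where 2.35% of all tested genes did. By list that was 1 of the 13 factors, 1 of the 29, 1 of the 71, 2 of the 28 and 0 of the 12.

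Marker genes gave the tissue and other cells in the samples. Of 10 kidney markers 8 were on the arrays and tested, 7 of them higher in congenic, with Kap, the androgen-regulated protein of the proximal tubule, at 0.24. The 1 on the lower side was Slc12a1 at -0.48, whose signal of 11.4 in congenic 2 was below the filter's signal. Of 12 leukocyte genes 7 were bright enough to be tested, 5 lower in congenic (median -0.38), with Coro1a at -0.81 (unadjusted p 0.0361 in limma). The 2 on the higher side were Laptm5 at 0.54 and Cd3e at 0.11. The per-sample median deviation of the leukocyte genes was 0.13, 0.37 and 0.04 in Dahl S and -0.15, -0.03 and -0.17 in congenic. These medians did not overlap between the strains, but the mean deviations of the same genes did, with -0.13 in Dahl S 3 and -0.03 in congenic 2. All 5 red cell genes were lower in congenic, with a per-sample median of -0.42, -0.46 and 1.51 in Dahl S and 0.27, -0.17 and -0.78 in congenic, where Dahl S 3 alone was high. Of 5 fat genes 2 were tested, Lpl at 0.38 and Lep at 0.05, and of 6 adrenal genes 3 were tested, Fdx1 at 0.22. The leukocyte medians were low in congenic 1 and congenic 3, where the ribosomal protein genes were lowest and highest at the deposited scaling. The leukocyte median was high in Dahl S 2, where the members were second highest at that scaling. The part of these cells in the strain differences of the members was not tested.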

How the data were processed

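Kidney RNA of 2 strains (3 samples each) was measured on 18 arrays of 3 types. Each deposited value is an intensity of 1 probe set, not log-transformed. The authors' intensities had a common mean per array after trimming 2% at each end, as the values show. The sources used here do not name the summarising software. Arrays of a sample were joined across types by the tag in the label.

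Values under the 10th percentile of an array type were raised to it (type A 3.1, type B 6.8, type C 4.9) before taking log2. After 177 control probe sets were left out, 26202 remained, and 15721 with a mean log2 signal above the 40th percentile of their type were tested. The comparison used R 4.3.3 with limma 3.58.1 (lmFit, eBayes with trend, Benjamini-Hochberg over all types, threshold 0.05), a procedure tested on simulated data. Python 3.11.15 with matplotlib 3.10.9 drew the figures. Symbols and chromosomes came from the platform annotation and the GRCr8 table (58 of 59 members matched, Rps9 not), and starts from RefSeq.

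The members and gene lists were chosen with earlier results of these data known, so counts and medians over them carry no p. Named members are those with the smallest p (8 per direction), all on chromosome 9, the 6 with the widest range of probe sets, 4 role groups and the relatives. From the related lists the genes with the smallest p were named, 2 per list. Members named for the split of the samples numbered 1 were chosen after their values were seen. So were Rps19, Rps20, Rps21, Rps15a, Rpl39, Eif4b, Slc12a1, Laptm5 and Cd3e.

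Deviations from the strain means of same-numbered samples correlated with 0.45, 0.08 and 0.18. The labels give only a sample number, so the numbers were not taken as pairs in the main fit. There the split of the samples numbered 1 counts as spread within a strain, which widens the SEs of genes with that split. Alternatives were other floors, filters and scalings, eBayes settings, the sample number as a block and a term for the samples numbered 1. Further alternatives were samples left out, probe sets averaged per gene, adjustment within each array type and an adjusted threshold of 0.1.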

Additional observations from a re-analysis of the deposited data

How the results depend on the processing

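No member passed the adjusted threshold in limma under any alternative run. The smallest adjusted p of a named member in limma was 0.923 where adjustment ran over all array types together. With adjustment within each array type, the smallest adjusted p of all tested probe sets was 0.80 in limma. The count of members with a higher congenic mean was 10, and it was 18 after median scaling, 16 without both samples numbered 1 and 12 to 26 with 1 sample left out. The subunit difference of 0.05 was 0.0047 without both samples numbered 1, -0.00024 with the mean of probe sets and -0.037 to 0.11 with 1 sample left out. Members apart in the samples numbered 1 were 31 below and 4 above after median scaling, an alternative chosen after seeing the data. There 41.3% of all tested genes stood apart. With the sample number as a block, 0 members were called and 3 had an unadjusted p under 0.05 (404 of all genes), and a term for the samples numbered 1 gave 3 and 350. Neither can move a strain difference in this balanced design, and the numbers are not known to pair samples. Of 556 recomputed strain differences of named members 44 changed sign, in 19 members. Rpl11 was 0.0064 after quantile normalization and 0.0026 after median scaling, and Rpl19l4 was 0.012 after median scaling. Without both samples numbered 1, Rpl22l1 was -0.032, Rpl36 0.022, Rpl9 0.028, Rpl19l4 0.015 and Rpl3l -0.053. With the mean of probe sets, Rpl7a was -0.031, Rpsa 0.11 and Rpl7l1 0.083. With 1 sample left out, Rps3 ran from -0.0092 to 0.16, Rpl5 from -0.16 to 0.43, Rpl36 from -0.18 to 0.16, Rpl11 from -0.11 to 0.043, Rpl9 from -0.064 to 0.081, Rplp0 from -0.28 to 0.049, Rpl22l1 from -0.043 to 0.28, Rps16 from -0.29 to 0.040, Rps9 from -0.16 to 0.098, Rpl19l4 from -0.42 to 0.42, Rpl3l from -0.18 to 0.19, Rps4y2 from -0.19 to 0.85, Rpl36al1 from -0.043 to 0.18, Rpl31 from -0.11 to 0.071, Rpl19 from -0.44 to 0.027 and Rpl27 from -0.17 to 0.10. The cause of these shifts was not tested. The dimmest members, Rpl30 and Rps4y2, had samples below the filter's signal, which limits their values.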
